A study of Homo sapiens with 4 samples.

Results

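YAP1, WWTR1, TEAD1, TEAD4, ANKRD1, CCN1, CCN2, AMOTL2, LATS2 and AJUBA are the 10 genes described here, of 59652 genes counted in hepatocellular carcinoma cells. The list was chosen by role, as effectors of the Hippo pathway and known targets of them, except that ANKRD1 was picked for its lower level at 25 mM glucose. The other 9 genes were proposed with results of these libraries already known, so their directions are not independent evidence. All 10 passed the filter on low values in both cell lines and entered every comparison.

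Huh7 and PLC are human hepatocellular carcinoma cell lines, both labelled wild type (WT). They were grown in DMEM without glucose, with fetal bovine serum and antibiotics, to which 5 mM (low) or 25 mM (high) glucose was added for 48 h. A single library was made per condition, so none of the 4 conditions has a replicate and no within-line difference has a replicate check. Total RNA was depleted of rRNA, directional libraries were built, and the reads counted on genes came to between 16049686 and 30279716.

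YAP1 and WWTR1 (the gene of the protein TAZ) are coactivators without a DNA-binding domain of their own. They enter the nucleus when the Hippo kinases LATS1 and LATS2 are inactive, and there they switch on genes through the TEAD transcription factors. In the liver this pathway is known for the control of organ size and for its activity in liver tumours, and ANKRD1, CCN1 and CCN2 are its most used readouts.

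Before the levels, the promoter sequences show which of the members carry the letters that TEAD factors bind. RefSeq sequences on GRCh38.p14, from 250 bases before to 50 after an annotated start, were at hand for 7 of the 10 members in 10 entries, since AMOTL2, WWTR1 and AJUBA have more than 1 start. The TEAD core, GGAATG or its reverse complement CATTCC, was searched on both strands and was found in 6 of the 10 entries, from 6 members (YAP1, ANKRD1, CCN2, AMOTL2, LATS2 and AJUBA). Of all 35116 promoters of this length, 14.0% hold the core at least 1 time, 1.37% at least 2 times and 0.128% at least 3 times. The 4 promoters printed are those of the targets with the core whose levels spread most over the libraries. The core stands in capitals, and each sequence reads 5′ to 3′ on the strand of the gene, which is the minus strand for all 4. They are ANKRD1 at chr10:90921038-90921337, CCN2 at chr6:131951323-131951622, AMOTL2 (its second entry) at chr3:134374398-134374697 and AJUBA (its second entry) at chr14:22976793-22977092.
ANKRD1: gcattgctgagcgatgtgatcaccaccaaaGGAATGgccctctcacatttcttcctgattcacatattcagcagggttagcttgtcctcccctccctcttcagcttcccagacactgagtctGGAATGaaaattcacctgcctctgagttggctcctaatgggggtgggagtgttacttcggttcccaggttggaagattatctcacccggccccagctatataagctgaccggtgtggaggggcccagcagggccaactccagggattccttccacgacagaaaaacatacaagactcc
CCN2: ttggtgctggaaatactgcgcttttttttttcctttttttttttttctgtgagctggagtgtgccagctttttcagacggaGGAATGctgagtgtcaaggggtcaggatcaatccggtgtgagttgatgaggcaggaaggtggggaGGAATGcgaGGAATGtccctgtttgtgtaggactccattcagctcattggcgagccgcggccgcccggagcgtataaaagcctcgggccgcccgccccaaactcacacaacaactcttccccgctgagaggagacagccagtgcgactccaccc
AMOTL2: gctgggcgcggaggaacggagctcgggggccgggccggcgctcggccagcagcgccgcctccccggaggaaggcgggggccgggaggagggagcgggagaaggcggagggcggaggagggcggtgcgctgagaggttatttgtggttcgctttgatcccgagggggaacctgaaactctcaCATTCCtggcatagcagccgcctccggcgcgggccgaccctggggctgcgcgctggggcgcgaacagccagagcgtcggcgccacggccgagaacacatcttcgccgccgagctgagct
AJUBA: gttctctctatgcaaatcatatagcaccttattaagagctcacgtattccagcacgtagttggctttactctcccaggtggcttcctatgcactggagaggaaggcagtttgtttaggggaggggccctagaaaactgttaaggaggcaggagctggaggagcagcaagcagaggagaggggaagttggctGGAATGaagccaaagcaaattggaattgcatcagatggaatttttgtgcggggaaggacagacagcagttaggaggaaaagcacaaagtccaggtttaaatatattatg
ANKRD1 holds the core 2 times, starting at -220 and -128 from the start site, and CCN2 holds it 3 times, at -169, -104 and -95. AMOTL2 and AJUBA hold it 1 time each, at -69 and -59. The letters TGANTCA, a loose form of the AP-1 site with any base at N, are the same on both strands apart from N. They were found only in the ANKRD1 entry, at -195, and in 7.71% of all promoters. The ANKRD1 match reads TGATTCA, with T at N and not the C or G of the usual AP-1 site. The CArG box, the site of serum response factor (SRF), was found in none of the 10 entries and in 1.29% of all promoters. Neither WWTR1 entry held the core, and nor did the first entries of AMOTL2 and AJUBA. A match is a description of letters and says nothing on whether a factor binds there in these cells.

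Levels are given as FPKM, the reads per kb of gene length, scaled to the total of reads counted on genes. The ratio is FPKM at 25 mM over FPKM at 5 mM within a line with 0.1 added to both, and its 95% interval is exact (Clopper-Pearson) from the reads of both libraries and covers counting error only. A gene is called lower or higher where FPKM is over 0.5 in at least 1 of the 2 libraries and the ratio is under 0.67 or over 1.5. In Huh7 cells, 3 of the 10 members were called lower (ANKRD1, CCN1 and AJUBA), where 13.7% of all 21864 genes tested were. In PLC cells, 6 of the 10 were called lower (the same 3, TEAD1, CCN2 and AMOTL2), where 17.0% of 21749 genes were. None of the 10 was called higher in either line, where 14.1% of genes in Huh7 and 26.2% in PLC were. ANKRD1, CCN1 and AJUBA were lower in both lines, where 3.82% of the 18108 genes tested in both were lower in both and 5.30% higher in both. ANKRD1 counts in each of these totals although it was picked on this contrast.

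**Figure D1:**
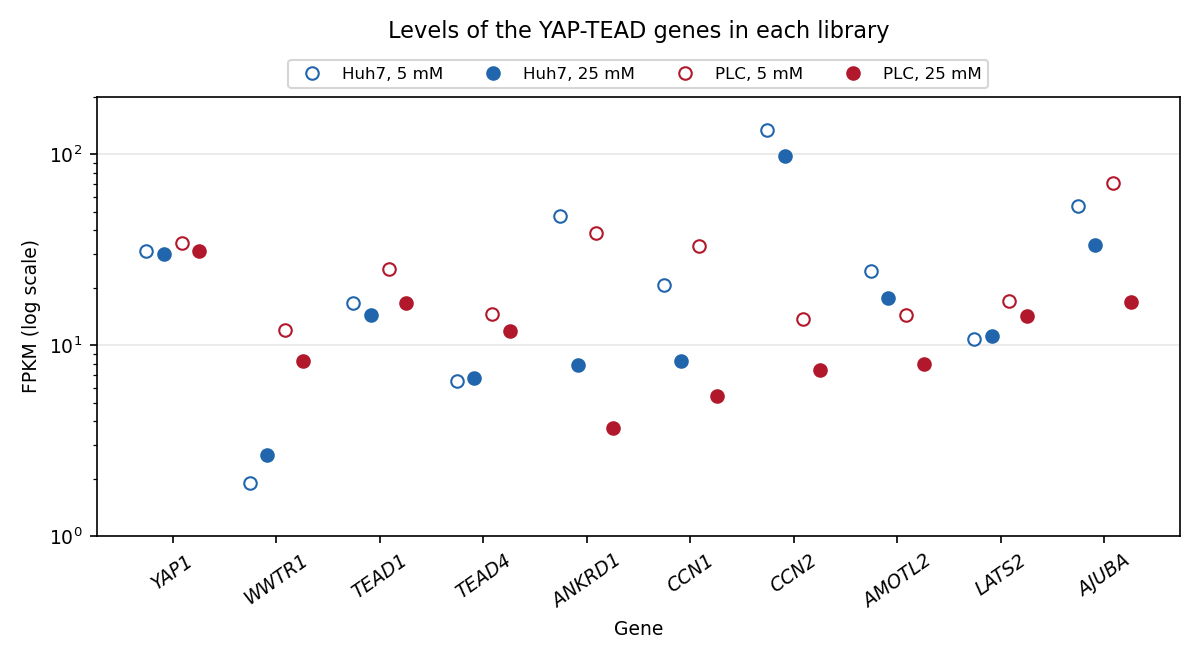
FPKM (log scale) of each of the 10 genes in the 4 libraries, with open points for 5 mM and filled points for 25 mM glucose, Huh7 in blue and PLC in red; each point is 1 library. The points of YAP1 lie together between 30.0 and 34.5, while those of ANKRD1 run from 3.69 to 47.7 and those of CCN2 from 7.38 to 134.3.

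YAP1 lies on chromosome 11 from 102110447 to 102233424 on the plus strand (coordinates of the count table, hg38), with 11 merged exon blocks. Its level was 31.3 and 30.0 FPKM in Huh7 at 5 and 25 mM and 34.5 and 31.3 FPKM in PLC. It was the steadiest member, with 1.15-fold between its highest and lowest library. The ratio was 0.960 (95% interval 0.922 to 0.999) in Huh7 and 0.908 (0.870 to 0.947) in PLC. Across both lines the log2 change at 25 mM was -0.18 (SE 0.21, adjusted p = 0.935).

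WWTR1 (chromosome 3, 149517235 to 149736714, minus strand) had 1.91 and 2.68 FPKM in Huh7 and 11.9 and 8.28 FPKM in PLC at 5 and 25 mM. Both PLC libraries lay above both Huh7 libraries, and the order of the glucose concentrations was opposite in the lines. For such separations of libraries, here and below, the share over all genes was not counted. The ratio was 1.38 (1.23 to 1.60) in Huh7 and 0.696 (0.647 to 0.743) in PLC, neither past the thresholds. WWTR1 was the only member whose interval lay above 1 in a line. Per length, WWTR1 stood at 6.11% and 8.93% of the level of YAP1 in Huh7 and at 34.7% and 26.5% in PLC, so YAP1 was the more abundant of the coactivators in every library.

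TEAD1 and TEAD4 encode DNA-binding partners of YAP1 and TAZ. TEAD1 (chromosome 11, 12674421 to 12944737, plus strand) had 16.6 and 14.4 FPKM in Huh7 and 25.1 and 16.7 FPKM in PLC. TEAD4 (chromosome 12, 2959330 to 3040676, plus strand) had 6.50 and 6.75 FPKM in Huh7 and 14.6 and 11.9 FPKM in PLC. For both genes, each PLC library lay above both Huh7 libraries, for TEAD1 only by 16.7 against 16.6 at the closest. The TMM scaling of edgeR, in place of library totals, multiplies levels by 1.01 in Huh7 at 5 mM and by 0.961 in PLC at 25 mM. That closest TEAD1 pair then changes order, so the separation of the lines for TEAD1 depends on the scaling. The TEAD1 ratio was 0.870 (0.833 to 0.908) in Huh7 and 0.665 (0.636 to 0.693) in PLC, just under the threshold, and WWTR1 at 0.696 was the member just outside it. With 1 added to both FPKM values in place of 0.1, the TEAD1 ratio in PLC was 0.677 and no longer called. The TEAD4 ratio was 1.04 (0.898 to 1.20) and 0.819 (0.729 to 0.916).

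The other 2 TEAD genes, named after their values were seen, had the higher level at 25 mM in both lines. TEAD2 had 9.29 and 11.6 FPKM in Huh7 and 4.90 and 10.5 FPKM in PLC, and TEAD3 had 7.59 and 8.87 FPKM in Huh7 and 3.96 and 5.21 FPKM in PLC. TEAD2 thus stood at 19.5% of the level of TEAD1 in PLC at 5 mM and at 63.0% at 25 mM, and in Huh7 at 56.1% and 80.4%. TEAD1 had the highest level of the 4 TEAD genes in every library. In the fit across both lines none of the 4 passed the test, with adjusted p = 0.572 for TEAD1, 0.957 for TEAD4, 0.563 for TEAD2 and 0.943 for TEAD3.

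ANKRD1, an ankyrin repeat protein best known from heart muscle, is the member picked for its difference, and its glucose values are a description without a test. The gene lies on chromosome 10 from 90912096 to 90921087 on the minus strand, and its upper end is the start site of the RefSeq promoter printed above. Its level was 47.7 FPKM (1826 reads) in Huh7 at 5 mM, 7.87 (424 reads) in Huh7 at 25 mM, 38.5 (2088 reads) in PLC at 5 mM and 3.69 (106 reads) in PLC at 25 mM. Both 5 mM libraries lay above both 25 mM libraries. The ratio was 0.167 (0.148 to 0.183) in Huh7 and 0.0981 (0.0780 to 0.116) in PLC, a level 6.06-fold and 10.4-fold lower without the added 0.1. It was the 366th lowest ratio of 21864 genes in Huh7 and the 292nd lowest of 21749 in PLC. Among the members it held the third highest level in Huh7 and the second highest in PLC at 5 mM, and the eighth and the tenth at 25 mM.

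CCN1 (CYR61) and CCN2 (CTGF) encode secreted proteins of the extracellular matrix that act on adhesion and growth. CCN1 (chromosome 1, 85580761 to 85584589, plus strand) had 20.7 FPKM (1638 reads) and 8.27 FPKM (920 reads) in Huh7 and 33.1 FPKM (3704 reads) and 5.39 FPKM (320 reads) in PLC. As with ANKRD1, both 5 mM libraries lay above both 25 mM libraries. The ratio was 0.402 (0.368 to 0.433) in Huh7 and 0.166 (0.145 to 0.183) in PLC. ANKRD1 was picked on this contrast, so no test is read for it. Of the 9 other members, CCN1 was the only one that passed the test of a change shared by the lines. Its log2 change was -2.04 (SE 0.32, adjusted p = 0.0158). That fit is the quasi-likelihood test of edgeR on the counts of all 4 libraries with the cell line as a term, and it called 88 of 23217 genes (0.379%), 73 of them lower and 15 higher. The lines stand in for replicates there, and the fit has 1 residual degree of freedom. With at least 10 counts asked of every library the adjusted p of CCN1 was 0.0572 and without the cell line term 1.0, and its range over 6 alternatives was 2.66e-10 to 1.0.

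CCN2 (chromosome 6, 131948176 to 131951372, minus strand) had the highest level of any member in Huh7, 134.3 FPKM (6712 reads) at 5 mM and 97.8 FPKM (6879 reads) at 25 mM. In PLC it had 13.7 FPKM (972 reads) and 7.38 FPKM (277 reads). The lines did not overlap, and in each the 25 mM library was the lower one. The ratio was 0.728 (0.704 to 0.753) in Huh7 and 0.541 (0.469 to 0.615) in PLC, and the shared log2 change of -0.75 (SE 0.23) had an adjusted p = 0.237. The 2 CCN genes were therefore in a different proportion in each library. Per length, the level of CCN2 over that of CCN1 was 6.48 (95% interval 6.14 to 6.85) at 5 mM and 11.8 (11.0 to 12.7) at 25 mM in Huh7, and 0.415 (0.386 to 0.446) and 1.37 (1.16 to 1.61) in PLC. By this measure CCN1 was the more abundant of the pair in 1 library only, PLC at 5 mM. The measure rests on the gene lengths of the count table, 3698 bases for CCN1 in 2 merged exon blocks and 2338 for CCN2 in 5. In PLC at 25 mM CCN1 had more reads than CCN2 (320 against 277), so the order there depends on those lengths.

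AMOTL2, LATS2 and AJUBA are targets that also act back on the pathway. AMOTL2, of the angiomotin family, binds YAP1 and holds it at cell junctions. It (chromosome 3, 134355874 to 134375479, minus strand) had 24.3 and 17.7 FPKM in Huh7 and 14.3 and 8.01 FPKM in PLC. Its ratios of 0.729 (0.693 to 0.765) and 0.563 (0.516 to 0.607) were close to those of CCN2, and the shared log2 change was -0.73 (SE 0.23, adjusted p = 0.273).

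LATS2 is the kinase that, with LATS1, phosphorylates YAP1 and TAZ and keeps them out of the nucleus. It (chromosome 13, 20973036 to 21061586, minus strand) had 10.7 and 11.2 FPKM in Huh7 and 17.0 and 14.3 FPKM in PLC, so that both PLC libraries were higher than both Huh7 libraries. The ratio was 1.05 (0.973 to 1.12) in Huh7 and 0.843 (0.788 to 0.900) in PLC. LATS2 stood at 73.8% and 73.5% of the level of LATS1 in Huh7 and at 68.6% and 89.5% in PLC.

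AJUBA encodes a LIM-domain protein that binds and inhibits the LATS kinases. The gene (chromosome 14, 22971177 to 22982551, minus strand) had 53.4 FPKM (6721 reads) and 33.3 FPKM (5892 reads) in Huh7 and 70.6 FPKM (12578 reads) and 16.7 FPKM (1582 reads) in PLC. Both 5 mM libraries lay above both 25 mM libraries, as for CCN1 and for ANKRD1, which was picked for its lower level at 25 mM. The share of all genes with this order was not counted. The ratio was 0.624 (0.601 to 0.645) in Huh7 and 0.238 (0.225 to 0.250) in PLC. The shared log2 change of -1.46 (SE 0.30) missed the threshold at an adjusted p = 0.0653, while it passed with DESeq2 (adjusted p = 0.0217) and without the filter on low counts (7.35e-07). Its range over 6 alternatives was 7.35e-07 to 1.0. The printed AJUBA promoter, like that of AMOTL2, belongs to a start inside the gene, not to the end given by the count table. The first AJUBA entry, which starts at that end, holds no TEAD core.

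**Figure D2:**
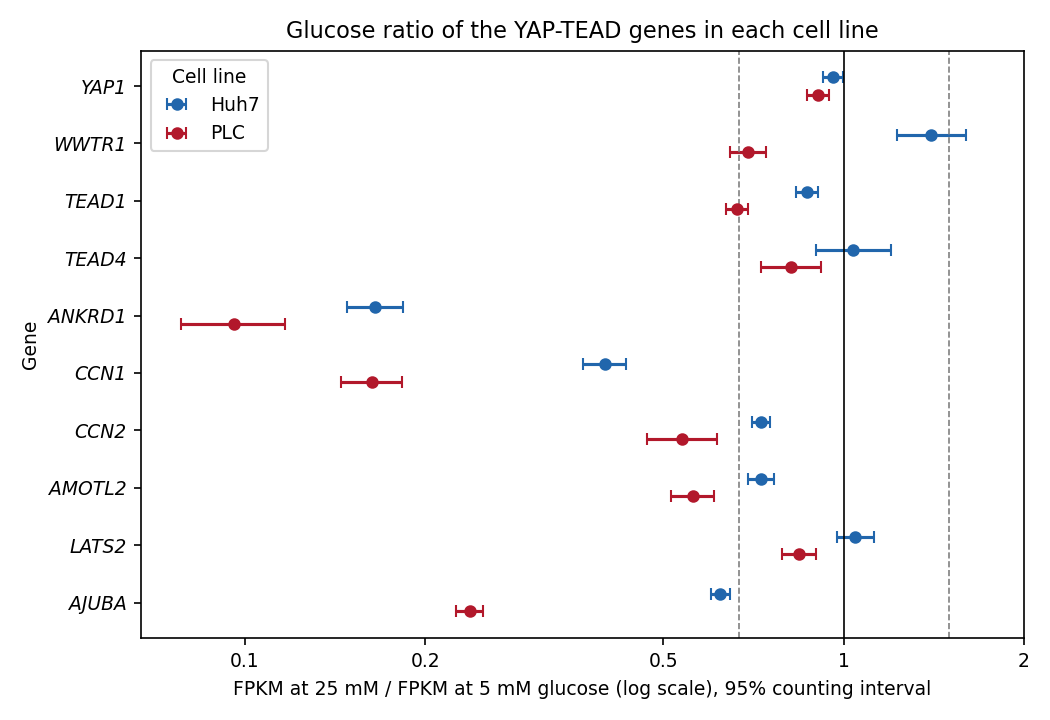
FPKM at 25 mM over FPKM at 5 mM glucose (log scale, without the added 0.1) for the 10 genes in Huh7 (blue) and PLC (red), with 95% counting intervals; the solid line marks a ratio of 1 and the dashed lines 0.67 and 1.5. The PLC point lies left of the Huh7 point for all 10 genes, and WWTR1 is the only gene whose intervals lie on opposite sides of 1.

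The ratio in PLC was below the ratio in Huh7 for ANKRD1 and for 9 of the 9 other members, where it was for 46.5% of the 18108 genes tested in both lines (51.9% with TMM scaling). The Huh7 ratio over the PLC ratio was 2.62 (95% counting interval 2.46 to 2.80) for AJUBA, 2.45 (2.13 to 2.82) for CCN1, 2.02 (1.75 to 2.34) for WWTR1 and 1.72 (1.38 to 2.15) for ANKRD1. It was between 1.24 and 1.35 for LATS2, TEAD4, AMOTL2, TEAD1 and CCN2, and 1.06 (0.998 to 1.12) for YAP1, the only member whose interval held 1. These intervals hold no spread between cultures, and the difference of the responses was not tested, because a fit with that term has no residual degree of freedom. The members' summed reads were 0.140% and 0.102% of all reads in Huh7 at 5 and 25 mM and 0.144% and 0.0743% in PLC.

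Values that moved with the PLC comparison are given beside it. The PLC library at 25 mM was the shallowest, with 16049686 reads. Scaling with the TMM method of edgeR in place of library totals moved every log2 ratio by -0.04 in Huh7 and -0.12 in PLC, after which the WWTR1 ratio in PLC was 0.641 and 7 of the 10 members were called lower there. Of 6 hepatocyte markers (ALB, AFP, TTR, APOA1, SERPINA1 and FGB), 4 were called higher at 25 mM in PLC, where TTR was not tested, and 1 in Huh7. Of all genes tested, 26.2% in PLC and 14.1% in Huh7 were called higher. The summed level of the 6 markers was 498 and 1367 FPKM in PLC and 4036 and 4350 FPKM in Huh7. ALB and AFP, which mark the labelled cell type, had at least 52.4 FPKM in every library, while TTR had 4 and 0 reads in the PLC libraries. Striated muscle markers, of interest since ANKRD1 is a heart muscle gene, summed to between 0.0181 and 0.253 FPKM, with ACTC1, MYH7 and MYL2 at 0 in all 4 libraries. Summed fibroblast markers ran from 0.725 to 7.17 FPKM, mostly LUM in Huh7 and COL3A1 in PLC, endothelial markers from 0.122 to 2.55, mostly PECAM1, and leukocyte markers from 0.0255 to 0.0576. The part of depth and of the hepatocyte genes in the members' ratios was not tested. In RNA from whole cultures, fewer cells that express a gene and less RNA per cell cannot be told apart.

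The rule for the members did not use the difference between the lines, and that difference was tested in the same edgeR fit. Of the 10 members, 4 passed, where 42.9% of the 23217 genes did. CCN2 was higher in Huh7 by 3.50 on the log2 scale (SE 0.25, adjusted p = 1.49e-07) and AMOTL2 by 0.95 (SE 0.23, adjusted p = 0.00481). WWTR1 was lower in Huh7 than in PLC, with a log2 difference of -2.14 (SE 0.29, adjusted p = 6.71e-05), and so was TEAD4, with -0.998 (SE 0.28, adjusted p = 0.0108). In the fit without a glucose term AMOTL2 had an adjusted p = 0.0897, while the other 3 passed under all 6 alternatives. The other members did not pass, with adjusted p = 0.0665 for ANKRD1, 0.0955 for LATS2, 0.143 for TEAD1, 0.469 for AJUBA, 0.714 for YAP1 and 0.913 for CCN1.

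By glucose concentration, the level of CCN2 in Huh7 over that in PLC was 9.78 (9.14 to 10.5) at 5 mM and 13.2 (11.7 to 14.99) at 25 mM. WWTR1 was 6.25-fold (5.59 to 7.01) higher in PLC than in Huh7 at 5 mM and 3.09-fold (2.81 to 3.41) higher at 25 mM. CCN1 and AJUBA changed places between the lines. At 5 mM both were higher in PLC, with Huh7 over PLC at 0.626 (0.591 to 0.664) for CCN1 and 0.757 (0.735 to 0.780) for AJUBA. At 25 mM both were higher in Huh7, at 1.53 (1.35 to 1.75) and 1.99 (1.88 to 2.10).

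**Figure D3:**
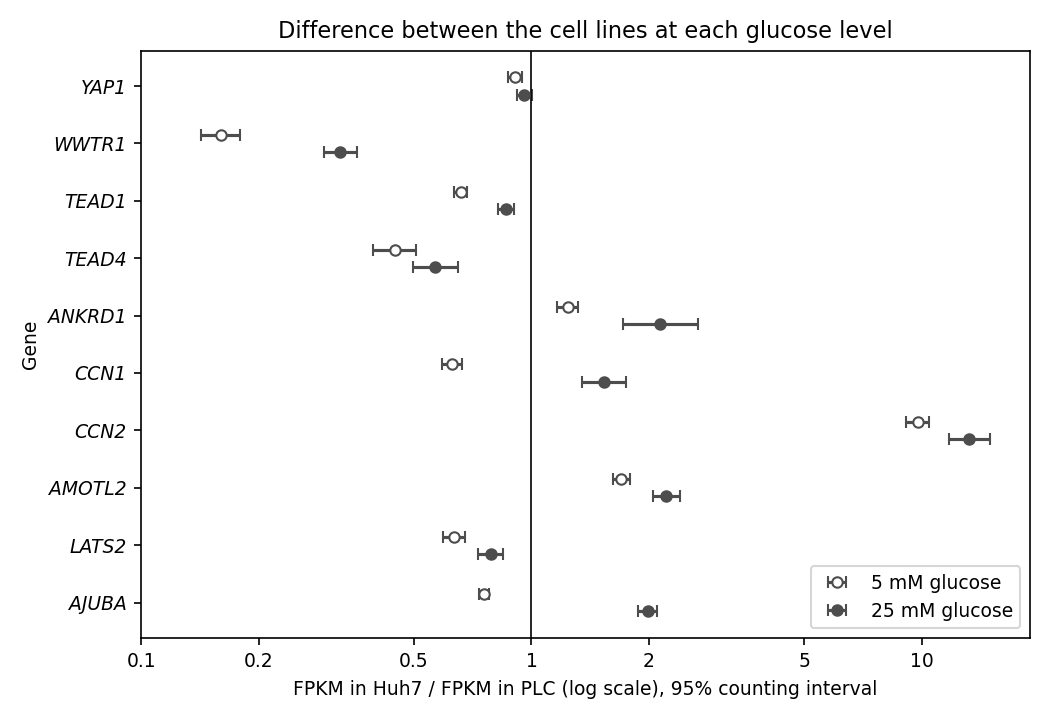
FPKM in Huh7 over FPKM in PLC (log scale) for the 10 genes at 5 mM (open) and 25 mM glucose (filled), with 95% counting intervals; each point compares 1 library with 1 library. CCN2 lies at 9.78 and 13.2 and WWTR1 at 0.160 and 0.323, and CCN1 and AJUBA lie on opposite sides of 1 at the 2 concentrations.

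The order of the members' levels was led by CCN2 and then AJUBA in both Huh7 libraries, by AJUBA and then ANKRD1 in PLC at 5 mM, and by YAP1 and then AJUBA in PLC at 25 mM. WWTR1 was the lowest member in Huh7 at both concentrations and in PLC at 5 mM, and ANKRD1 was the lowest in PLC at 25 mM. Of 36 pairs of neighbours in these orders, 6 had a ratio of levels whose counting interval held 1. They were CCN1 and ANKRD1 in Huh7 at 25 mM, TEAD4 and AMOTL2 as well as AMOTL2 and CCN2 in PLC at 5 mM, and AJUBA and TEAD1, WWTR1 and AMOTL2, and AMOTL2 and CCN2 in PLC at 25 mM. For no pair could the spread between cultures be measured.

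Other genes around the members were taken as 3 lists. Of 25 other genes of the Hippo pathway (kinases, scaffolds, angiomotins, LIM proteins, TEAD and VGLL genes), 21 were tested in Huh7 and none was called in either direction. In PLC 20 were tested, with 3 called lower (LATS1, WWC1 and WTIP) and 2 higher (TAOK2 and TEAD2), of which WTIP, TAOK2 and TEAD2 are named after their values were seen. Of all genes tested, 13.7% were called lower and 14.1% higher in Huh7, and 17.0% and 26.2% in PLC. The median ratio of the list was 1.05 in Huh7 and 1.02 in PLC, beside 1.03 and 1.08 over all genes tested. For the members other than ANKRD1, which was picked for its low ratio, it was 0.870 and 0.665. In the edgeR fit none of the 22 genes of the list that were tested passed for glucose, with 3 at an unadjusted p under 0.05, and DESeq2 and limma also called 0. Of all 23217 genes tested in edgeR, 1975 had an unadjusted p under 0.05. The highest levels of the list were those of MOB1A (a LATS coactivator), with 37.9, 47.0, 32.6 and 32.7 FPKM in the order Huh7 at 5 and 25 mM and PLC at 5 and 25 mM, of NF2, with 27.9, 29.9, 15.003 and 20.6, and of LATS1, with 14.5, 15.3, 24.7 and 16.0. NF2 had ratios of 1.07 and 1.37, LATS1 of 1.05 and 0.647, and MOB1A of 1.24 and 1.003 in Huh7 and PLC, where the PLC value of MOB1A turned to 0.923 with TMM scaling.

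Between the lines, 11 of those 22 genes passed, 6 higher in Huh7 and 5 higher in PLC, where 42.9% of all genes tested passed. AMOT, an angiomotin like AMOTL2, was higher in Huh7 with 3.75 and 2.94 FPKM against 0.186 and 0.117 in PLC (log2 difference 4.45, SE 0.36, adjusted p = 4.91e-07). Among the WWC genes, scaffolds that activate the LATS kinases, WWC3 was higher in Huh7 (6.04 and 5.23 FPKM against 0.294 and 0.470, adjusted p = 8.70e-07) and WWC1 was higher in PLC (18.8 and 10.8 FPKM against 5.51 and 5.14, adjusted p = 0.000475). The WWC genes were thus split between the lines, with WWC2 higher in Huh7 by 0.94 on the log2 scale (adjusted p = 0.00688). MAP4K4, a kinase upstream of LATS, was higher in Huh7 by 2.52 (adjusted p = 1.12e-06), and STK3 (MST2) was lower in Huh7, with a log2 difference of -1.07 (adjusted p = 0.00247).

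Of 17 other targets of YAP1 and TEAD factors, 12 were tested in Huh7 and 10 in PLC. GADD45A, a gene of the stress response to DNA damage, was the only one called lower in Huh7, where 13.7% of all genes tested were. In PLC 5 were called lower (GADD45A, ASAP1, NUAK2, MYOF and PTPN14, the last 3 named after their values were seen) and NT5E was called higher. Of all genes tested in PLC, 17.0% were called lower and 26.2% higher. The median ratio of the list was 0.830 in Huh7 and 0.681 in PLC. GADD45A had 22.6 and 9.65 FPKM in Huh7 and 19.2 and 3.17 FPKM in PLC, so that its 5 mM libraries lay above its 25 mM libraries as for CCN1. It was the only one of the 15 targets tested that passed the test of the shared fit (log2 change -1.96, SE 0.35, adjusted p = 0.0317). DESeq2 and limma also called only GADD45A of the list. In edgeR 6 of the 15 targets had an unadjusted p under 0.05, beside 1975 of all 23217 genes. NUAK2, a kinase of the AMPK family, had 1.81 and 1.44 FPKM in Huh7 and 11.4 and 2.26 FPKM in PLC (adjusted p = 0.247). NT5E, which encodes the surface enzyme CD73, had 23.1 and 17.1 FPKM in Huh7 and 7.42 and 18.1 FPKM in PLC, and is the target whose ratio went furthest against the members, at 2.42 in PLC.

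Between the lines, 12 of these 15 targets passed, 7 higher in Huh7 and 5 higher in PLC, beside the same 42.9% of all genes. AXL, a receptor tyrosine kinase, had 0.109 and 0.123 FPKM in Huh7 and 21.0 and 15.4 FPKM in PLC (log2 difference -7.24, SE 0.35, adjusted p = 6.01e-09). TGFB2 had 6.60 and 4.63 FPKM in Huh7 and 0.0655 and 0.0206 FPKM in PLC, and ARHGEF17 had 4.46 and 4.08 FPKM against 0.0333 and 0.0628. CRIM1 (adjusted p = 7.65e-08) and IGFBP3 (adjusted p = 3.31e-05) were also higher in Huh7, as CCN2 was, and DOCK5 was higher in PLC (adjusted p = 0.000858).

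SRF and its coactivators respond to actin and share targets with YAP1 and TEAD factors, and 12 genes of that kind formed the last list. In Huh7 9 were tested and 1 was called lower, and in PLC 10 were tested and 3 were called lower (FLNA, SRF and FHL2, the last named after its values were seen). Of all genes tested, 13.7% in Huh7 and 17.0% in PLC were called lower. The median ratio was 0.879 in Huh7 and 0.800 in PLC, beside 0.870 and 0.665 for the members other than ANKRD1. FLNA, an actin crosslinker, had 76.7 and 50.2 FPKM in Huh7 and 141.6 and 60.2 FPKM in PLC, and was called lower in both lines (ratios 0.654 and 0.425). None of the 10 genes of the list tested passed for glucose in edgeR, with FLNA at an adjusted p = 0.0691 and 2 genes at an unadjusted p under 0.05, while DESeq2 and limma each called 1, FLNA. The actin genes ACTB and ACTG1 had ratios of 0.879 and 0.732 in Huh7 and 1.27 and 1.01 in PLC. Between the lines, 1 of the 10 genes passed in edgeR as higher in Huh7 and 6 as higher in PLC, where 42.9% of all genes tested passed. For MYL9 (adjusted p = 3.72e-08), TPM1 (8.55e-07), TAGLN (0.000126), SRF (0.00558), ACTG1 (0.000624) and FLNA (0.0374) PLC had the higher level, and for CALD1 (0.00013) Huh7 did.

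**Figure D4:**
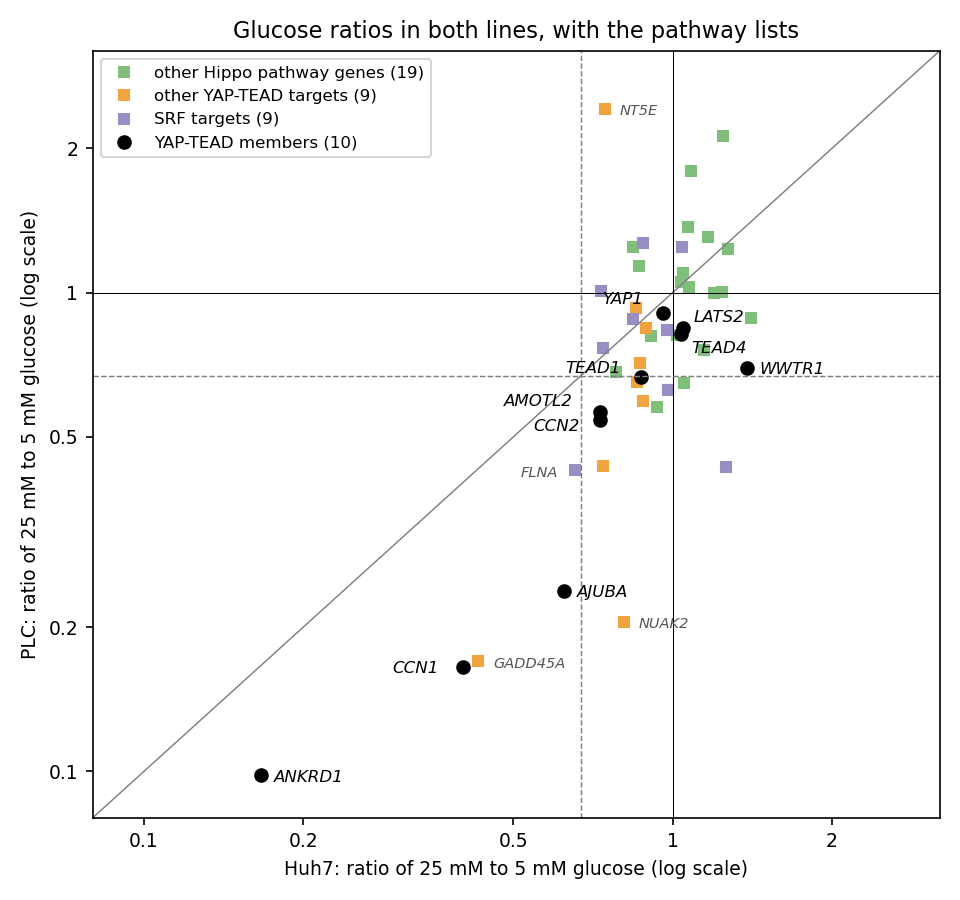
Ratio of 25 mM to 5 mM glucose in Huh7 (horizontal) against PLC (vertical), both on log scales with 0.1 added, for the 10 members (black) and the genes of the 3 lists tested in both lines (19 Hippo genes, 9 targets and 9 SRF targets); the diagonal marks equal ratios and the dashed lines 0.67. ANKRD1, CCN1 and AJUBA lie lower left with GADD45A and FLNA near them, and the other Hippo genes lie between 0.781 and 1.41 in Huh7 and between 0.576 and 2.12 in PLC.

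The genes whose pattern was most like that of ANKRD1 were sought among the 10835 genes that reached 100 reads in a library of each line. The measure was the Euclidean distance between profiles of log2(FPKM + 0.1) over the 4 libraries, each centred on its own mean. The nearest 5 were SH3BP2 (distance 0.788), GADD45A (1.14), JDP2 (1.14), SLC7A11-AS1 (1.20) and KLF4 (1.23). SH3BP2, an adaptor protein, had 5.66 and 0.614 FPKM in Huh7 and 3.59 and 0.582 FPKM in PLC. JDP2, a partner of AP-1 factors, had 3.97 and 1.19 FPKM in Huh7 and 2.06 and 0.348 FPKM in PLC, and KLF4, a transcription factor, had 5.89 and 1.42 FPKM and 2.15 and 0.374 FPKM. All 5 had both 5 mM libraries above both 25 mM libraries, which follows from the way they were chosen. SLC7A11-AS1 is antisense to SLC7A11 by its name, and its count is uncertain because the use of strand in the counting is not given in the sources used here.

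**Figure D5:**
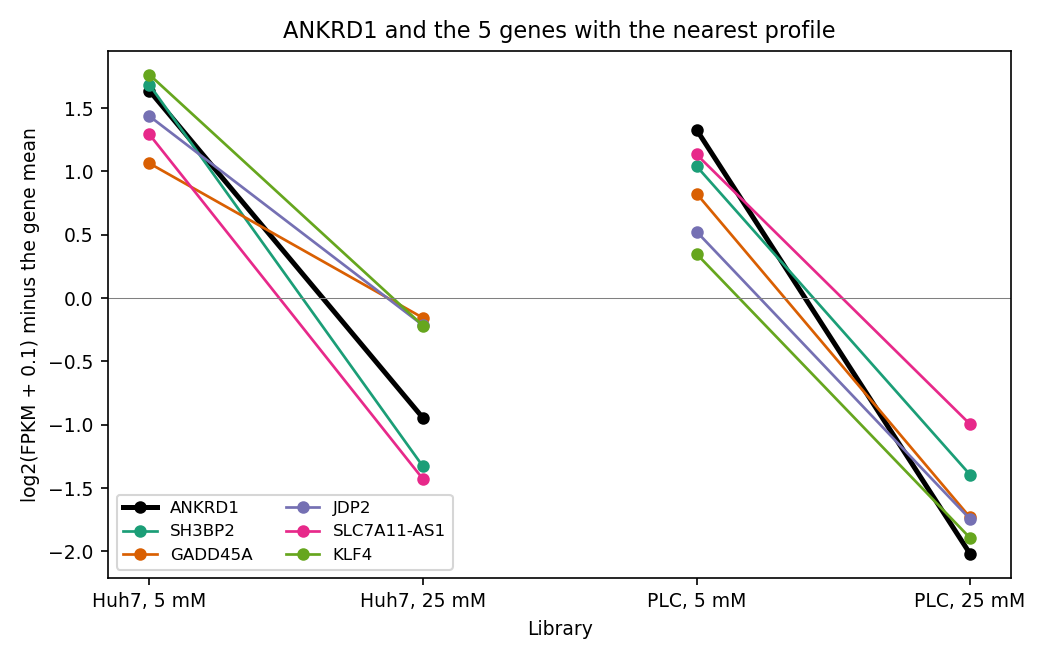
log2(FPKM + 0.1) minus the mean of the gene over the 4 libraries, for ANKRD1 (black, thick) and the 5 genes nearest to it; lines join the 5 mM and 25 mM libraries of one cell line. ANKRD1 has the lowest point of all 6 genes in PLC at 25 mM, and SH3BP2 and SLC7A11-AS1 have the lowest points in Huh7 at 25 mM.

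The members' own overlaps with other genes were looked up as well. Of the 10, 5 (YAP1, WWTR1, CCN2, AMOTL2 and AJUBA) share exon bases with another gene of the table, at most 756 bases, and no such gene had more than 50 reads in a library. ANKRD1, CCN1, TEAD1, TEAD4 and LATS2 share none. How reads on shared bases were counted is not given in the sources used here. The reads of the overlapping genes therefore cannot show whether a member lost reads.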

How the data were processed

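RNA-seq libraries of Huh7 and PLC cells at 5 mM and 25 mM glucose for 48 h were analysed, 1 library for each line and concentration. The authors deposited 1 table of counts, whole numbers of reads per gene without normalization. The submitters' processing notes name HISAT2, featureCounts and hg38, without versions or parameters, and whether the counting used strand is not given in the sources used here. The study's methods describe a directional library kit after rRNA removal. Libraries were assigned by the labels. Of 59657 data lines 59652 were used, and 5 lines of a broken ANK2 entry were left out.

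FPKM was computed from the count, the gene length of the table and the library total. Ratios had 0.1 added, and the study's thresholds were used (FPKM over 0.5, here in at least 1 of the 2 libraries, and a ratio over 1.5 or under 0.67). Intervals are exact 95% binomial intervals, and for the ratio of ratios normal on the log scale, and they cover counting error only. Totals ran from 16049686 to 30279716 reads. Shared changes and line differences were tested with edgeR 4.0.16 in R 4.3.3 (TMM, filterByExpr, quasi-likelihood test, terms for line and glucose, Benjamini-Hochberg adjustment over all genes tested), and adjusted p-values under 0.05 were called. Neither the cell lines nor the glucose concentrations are replicate cultures. These p-values therefore rest on how the response to glucose differs between the lines, and not on a spread between cultures. The code was tested on simulated data. Alternatives were TMM and DESeq2 scaling, other added constants, filters and thresholds, RLE factors, models without one term, DESeq2 1.42.0 and limma 3.58.1.

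The members and the lists of pathway genes and markers were chosen with earlier results of these data known. Named genes are the 10 members, list genes called in the same direction in both lines, the 6 list genes with the smallest p per contrast among those with an adjusted p under 0.05, the 3 with the highest mean FPKM of each list, and the 5 genes nearest to ANKRD1. Others are said to be named after their values were seen. Motifs were searched in RefSeq promoters of GRCh38.p14.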

Additional observations from a re-analysis of the deposited data

Results flagged for a closer look

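Among the members and the list genes named, 6 had counting intervals of the glucose ratio that lay on opposite sides of 1 in the 2 lines. The count depends on which genes were named, FHL2 among them after its values were seen, and no share over all genes was counted. Of list genes not in that count, VGLL4 and LIMD1 were also higher at 25 mM in Huh7 and lower in PLC, and FRMD6 the reverse. WWTR1 was the only member among the 6, with a Huh7 ratio over PLC ratio of 2.02, and FHL2, an SRF target, had 3.10 in the same direction. The same quantity was 0.541 for WWC3, 0.756 for MAP4K4, 0.305 for NT5E and 0.694 for ACTB, which were lower at 25 mM in Huh7 and higher in PLC. These differences between the lines were not tested, since each condition has 1 library. With TMM scaling the PLC interval of MAP4K4 held 1 (0.971 to 1.14), while those of WWTR1 (0.595 to 0.683), FHL2 (0.310 to 0.462), WWC3 (1.01 to 2.13), NT5E (2.07 to 2.44) and ACTB (1.15 to 1.18) kept their side. WWC3 had only 0.294 and 0.470 FPKM in PLC, under the filter of 0.5, so it was not among the genes tested there.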

How the results depend on the processing

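Leaving out a library was not possible, since each condition has 1. The labels carry no replicate numbers, and the cell line term of edgeR is what joins the libraries of a line. The depth allows the members' ratios to be measured within counting error, but not the spread between cultures. Of all values compared across settings, 44 counts and 206 values of single genes kept their call and direction or moved little. The difference between lines for AJUBA, which was not called, turned from 0.29 to -0.050 on the log2 scale without the glucose term. Another 12 values of member ratios, all in PLC, moved beyond their counting interval without a change of direction. They were those of YAP1, WWTR1, TEAD1, LATS2 and AJUBA under both TMM and DESeq2 scaling, and of ANKRD1 and CCN1 with 1 added to FPKM. TMM and DESeq2 scaling added WWTR1 (0.641 and 0.644) to the members called lower in PLC. With 1 added to FPKM, with FPKM over 0.5 asked of both libraries, and with ratios over 2 or under 0.5, the genes called were 3092, 3427 and 3066 in Huh7 (6068 as reported) and 5982, 5917 and 5253 in PLC (9409). The last setting left 3 members called in PLC in place of 6. For the shared glucose change (88 genes, and 1 member other than ANKRD1), the genes called and those members were 526 and 2 without a filter, 27 and 0 with at least 10 counts in every library, 0 and 0 without the cell line term in edgeR (52 genes at an unadjusted p under 0.05, beside 2219 with limma and 1098 with DESeq2 with the term), and 194 and 2 with DESeq2. Where 2 members were called, they were CCN1 and AJUBA. The difference between lines had 6340 genes in place of 9969 with at least 10 counts in every library. The smaller counts under stricter filters include the effect of fewer genes tested, and other causes were not tested.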
